A study of Mus musculus with 15 samples.

Results

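The nuclear genes of the mitochondrial respiratory chain were followed in leukemic spleens of mice from a Cbx7-overexpression model. Members were taken by symbol: every gene of the deposited array table whose symbol begins with Ndufa, Ndufb, Ndufc, Ndufs, Ndufv, Sdha to Sdhd, Uqcr, Cox4 to Cox8 or Atp5. This gave 77 genes, read by 95 probes, of 18115 genes and 25697 probes in all. Cbx7 is a chromobox protein of polycomb repressive complex 1, and all mice compared here belong to the Cbx7-overexpression model, so no level from a spleen without it stands beside any value. Total RNA came from unsorted single-cell suspensions of spleen and was read on Illumina bead arrays after whole-transcriptome amplification. The labels name a leukemia type for 12 mice. T-cell leukemia is given for 7 of them, numbered 2, 5, 4-1, 2-2, 5-1, 4-2 and 5-3. Erythroid leukemia is given for 4, numbered 2-3, 5-5, 2-3-2 and 2-3-3, and mouse 4-3 is labelled undifferentiated. The labels give no ages and do not say how Cbx7 was introduced or in which cells. Mice whose titles share a first number may not be independent, and p-values then measure less than the full spread. Erythroid mice 2-3, 2-3-2 and 2-3-3 share the longer stem 2-3, so the 4 erythroid mice may hold fewer independent ones.

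The respiratory chain sits in the inner mitochondrial membrane. Complex I takes electrons from NADH and complex II from succinate, complex III passes them to cytochrome c, complex IV hands them to oxygen, and complex V uses the proton gradient built on the way to make ATP. Developing red cells depend on mitochondria for heme synthesis and clear them as they mature, while dividing T cells use both glycolysis and respiration. By complex the members were 33 genes of complex I, 3 of complex II, 6 of complex III, 17 of complex IV and 14 of complex V. Ndufa4, named for complex I, is counted with complex IV, where its protein is found, and so is Cox7a2l, a COX7A relative that joins complexes into supercomplexes. The remaining 4 genes match the name rule but encode no chain subunit. They are Ndufaf1, a complex I assembly factor, Atp5sl (now Dmac2), also linked to complex I assembly, Atp5s (now Dmac2l), a factor associated with ATP synthase, and Cox4nb (now Emc8), part of a membrane protein insertion complex of the endoplasmic reticulum.

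Of the 77 genes, 71 were tested among 10474 genes whose probe passed a detection p of 0.05 on 3 or more of the 14 arrays with a type. The 6 not tested were detected on 0 arrays. Cox4i2, Cox6a2, Cox7b2, Cox8b and Cox8c are the isoforms of complex IV subunits known from lung, muscle or testis, and Uqcrq is a complex III subunit whose probe gave no signal. Levels below are log2 intensities after background correction and quantile normalization. They compare mice for the same probe, and not genes with each other.

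The T-cell and erythroid labels matched the lineage markers of the spleens. T-cell markers were lower in erythroid than T-cell leukemias for 11 of 12 genes tested, with a mean level of 7.43 to 9.45 in the T-cell mice, 5.18 to 6.02 in the erythroid mice and 5.47 in the undifferentiated mouse. Erythroid markers rose for 5 of 13, with a mean level of 5.63 to 9.62, 9.75 to 10.54 and 9.69 in the same order. In bulk spleen, a change in the share of a cell type and a change per cell cannot be told apart. The arrays detected 7382 to 12944 probes. Both weakest arrays were erythroid: the second of 2 arrays of mouse 5-5, with 7382 probes and 54 of the 71 members detected, and the only array of mouse 2-3-2, with 7554 probes and 52 members. The T-cell arrays detected 64 to 71 members and the undifferentiated array 68.

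Between erythroid and T-cell leukemias, most respiratory chain genes did not pass the test. Of the 71 tested, 1 was higher and 2 were lower in the erythroid leukemias at an adjusted p under 0.05 (limma, Benjamini-Hochberg over all 10474 genes), where 3.86% of all genes were higher and 6.43% were lower. Cox7a2l and Atp5sl fell and Atp5s rose. Only Cox7a2l, the supercomplex factor, is counted with a complex, so 66 of the 67 tested genes of the complexes did not pass. At an unadjusted p under 0.05 there were 12 members, or 16.9%, against 28.2% of all genes, and 6 members, or 8.45%, had a difference of at least 1 on the log2 scale against 17.2% of all genes. The erythroid mice lay entirely above the T-cell mice for 1 member, Atp5s (2.51% of all genes), and entirely below for 1, Atp5sl (4.71% of all genes).

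A shift of most members to lower means was present with all mice and was absent without the weak arrays. The median change of the 71 members was -0.28 (all genes -0.03), and 50 members had the lower mean in the erythroid leukemias. Without the 2 weakest arrays the median was 0.14 (all genes -0.01), and 50 members had the higher mean. The median ran from -0.55 for complex III and -0.40 for complex V to -0.22 for complex I, -0.19 for complex IV and -0.05 for complex II, and without the weak arrays these medians were 0.31, 0.04, 0.15, 0.06 and -0.01. Mouse 2-3-2 was the lowest of the 12 mice for 38 of 71 members, or 53.5%, and for 28.2% of all genes. It was also the highest for 9 members, among them Atp5k, Sdhc and Ndufb8, so its array was not low throughout. Erythroid mouse 2-3, whose array detected 12605 probes, was the highest of all mice for 20 members, or 28.2%, and for 7.16% of all genes.

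**Figure D1:**
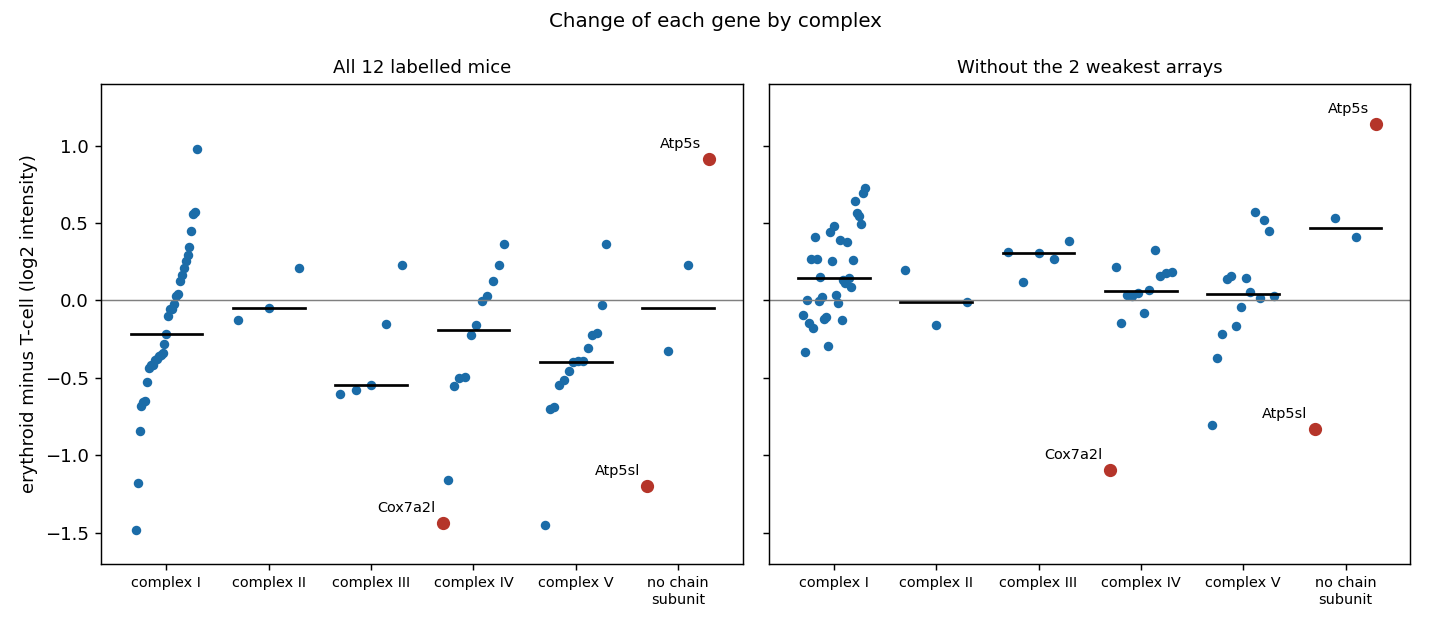
Erythroid minus T-cell change (log2 intensity) of each of the 71 tested genes, 1 point a gene, by complex, with the median of each complex as a black line; the left panel uses all 12 labelled mice and the right panel leaves out the 2 weakest arrays, both erythroid. Red points are the 3 genes past the threshold with all mice, and the medians of complexes I, III, IV and V lie below 0 on the left and above 0 on the right.

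Averaged over the tested genes of the complexes, the level was 8.56 ± 0.24 (SD, n = 7) in the T-cell leukemias and 8.30 ± 0.54 (n = 4) in the erythroid leukemias, and it was 8.67 in the undifferentiated leukemia. The erythroid mice spanned the whole range, from 7.60 in mouse 2-3-2 through 8.22 in mouse 5-5 and 8.55 in mouse 2-3-3 to 8.84 in mouse 2-3. The T-cell mice lay between 8.13 in mouse 5-3 and 8.77 in mice 2-2 and 5-1, so both the lowest and the highest spleen were erythroid. The mean of complex II varied least between mice, at 9.50 ± 0.12 in T-cell and 9.51 ± 0.21 in erythroid leukemias. Its genes went opposite ways in mouse 2-3-2, with Sdhb (7.82) and Sdhc (11.21) the highest of all mice and Sdhd (9.93) the lowest. The mean of complex III varied most, at 7.96 ± 0.42 and 7.62 ± 0.93. On the weak array of mouse 2-3-2, Uqcrc1 and Uqcrfs1 of complex III read 4.72 and 4.61. Mouse 5-3 was the lowest T-cell spleen in complexes I, III, IV and V.

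**Figure D2:**
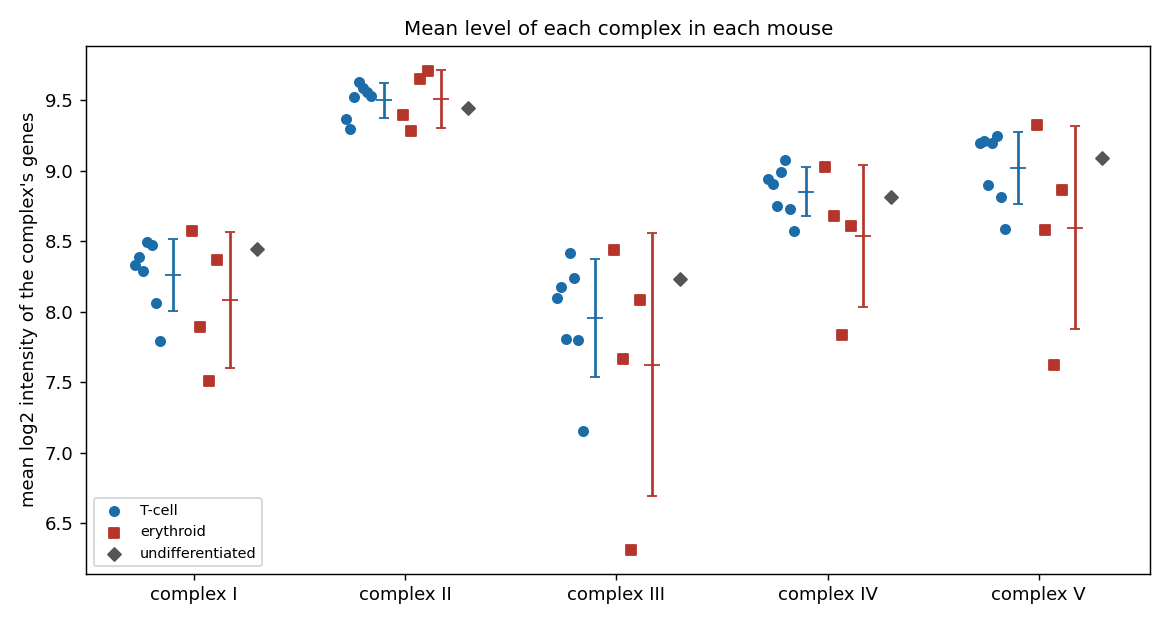
Mean log2 intensity of the tested genes of each complex in each mouse, with T-cell mice as circles (n = 7), erythroid mice as squares (n = 4) and the undifferentiated mouse as a diamond; horizontal ticks with bars are the mean ± SD of a type. The mean of complex II was tight in both types, though its genes went opposite ways in mouse 2-3-2. The erythroid means of complex III spread from 6.31 to 8.44, the lowest in mouse 2-3-2.

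Repeat arrays of the same mouse set the scale of the measurement error. In T-cell mouse 5-1, with 12775 and 12435 probes detected, the arrays differed by a median of 0.19 over the members (all genes 0.25). In erythroid mouse 5-5 the median difference was 0.81 (all genes 0.68), up to 3.69 for Ndufa5, and the weaker second array was lower by a median of 0.68. The median SD between mice was 0.32 in the T-cell and 0.56 in the erythroid leukemias.

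In complex I, which holds the flavin and iron-sulfur core that oxidises NADH and a shell of accessory subunits, 0 of 33 genes passed the limma test in either direction, and 7 had an unadjusted p under 0.05. The lowest adjusted p belonged to Ndufab1, the mitochondrial acyl carrier protein, which also serves fatty acid and lipoate synthesis. Its level in the erythroid mice was 5.53 in mouse 2-3, 6.49 in 5-5, 6.12 in 2-3-2 and 6.68 in 2-3-3, and the T-cell mice ran from 4.45 to 5.88 with a mean of 5.23 ± 0.47. Mouse 2-3 lay within the T-cell range and the other erythroid mice lay above it. The difference was 0.98 ± 0.30 (SE; adjusted p = 0.0556), and its 95% interval was 0.33 to 1.63. The repeat arrays of mouse 5-5 read 5.66 and 7.32, the first of them inside the T-cell range. Without the 2 weakest arrays the difference was 0.73 ± 0.33 (adjusted p = 0.194). Ndufab1 was detected on 6 of 8 T-cell arrays and 5 of 5 erythroid arrays.

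Ndufs1, the largest iron-sulfur subunit of the complex I core, stood at 7.37, 7.58, 7.20 and 7.92 in erythroid mice 2-3, 5-5, 2-3-2 and 2-3-3 and at 6.64 to 7.22 in the T-cell mice. Only mouse 2-3-2 fell inside the T-cell range, just below its top. The difference was 0.57 ± 0.21 (adjusted p = 0.0971), and 0.69 ± 0.20 without the 2 weakest arrays (adjusted p = 0.0576). Of the core subunits beside it, Ndufv1, which binds the flavin, differed by 0.45 ± 0.26 (adjusted p = 0.286), and Ndufs8, an iron-sulfur subunit, by -0.84 ± 0.59 (adjusted p = 0.373), or by 0.003 without the weak arrays.

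The widest differences in complex I came from accessory subunits with low values on the weak arrays. Ndufb3, a small membrane-arm subunit, was at 8.58 and 8.17 in erythroid mice 2-3 and 2-3-3, inside the T-cell range of 7.72 to 8.80, and at 6.50 and 4.58 in mice 5-5 and 2-3-2. On the repeat arrays of mouse 5-5 it read 8.30 and 4.71. The difference was -1.48 ± 0.59 (adjusted p = 0.125), and it was -0.09 ± 0.23 without the 2 weakest arrays. Ndufa1, an X-linked subunit needed for complex I assembly, differed by -1.18 ± 0.43 (adjusted p = 0.0979), with mouse 2-3-2 at 6.71, and by -0.33 without those arrays. Of the 26 accessory subunits, 17 had a lower and 9 a higher mean in the erythroid leukemias. Ndufa5 and Ndufa8 each had another probe that differed in the opposite direction: Ndufa5 by -0.22 on the brighter probe and 0.52 on the other, Ndufa8 by -0.28 and 0.02, and neither probe of either gene passed. Without the weak arrays the brighter probes differed by 0.48 and 0.25.

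Complex II is succinate dehydrogenase, which is also an enzyme of the TCA cycle and has no subunit encoded in mitochondrial DNA. Its tested genes Sdhb, the iron-sulfur subunit, and Sdhc and Sdhd, the membrane anchors, differed least of all complexes, by -0.05, 0.21 and -0.13, and 0 of 3 passed, with 0 at an unadjusted p under 0.05. Sdhc read 10.31, 10.56, 11.21 and 10.74 in erythroid mice 2-3, 5-5, 2-3-2 and 2-3-3 and 10.22 to 10.68 in the T-cell mice. The highest of all 12 mice was 2-3-2, the mouse lowest for most other members. The 95% interval of the Sdhc difference was -0.26 to 0.67, and another Sdhc probe differed by -0.17. Sdhd read 10.72, 10.07, 9.93 and 10.76 in the same erythroid mice and 10.26 to 10.72 in the T-cell mice, so its erythroid values lay on both sides of the T-cell range, with an interval of -0.61 to 0.36.

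Complex III, the cytochrome bc1 complex, carried 0 of 5 genes past the threshold and 0 at an unadjusted p under 0.05. Uqcrc2, a core protein, read 9.67, 8.75, 7.08 and 9.12 in erythroid mice 2-3, 5-5, 2-3-2 and 2-3-3, against 8.76 to 9.61 in the T-cell mice. Uqcrfs1, the Rieske iron-sulfur protein, read 6.98, 5.74, 4.61 and 6.45 in those mice, against 5.27 to 7.04. In both genes mouse 2-3 was near the top of all mice and mouse 2-3-2 was at the bottom. The differences were -0.58 ± 0.40 (adjusted p = 0.362) and -0.55 ± 0.43 (adjusted p = 0.434), and 0.12 and 0.31 without the 2 weakest arrays. In that setting 5 of 5 genes of complex III had the higher mean in the erythroid leukemias and 0 of 5 passed.

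In complex IV, cytochrome c oxidase, 1 of 12 tested genes passed. Cox7a2l (also known as SCAF1), which links complex III to complex IV in supercomplexes, fell in the erythroid leukemias. Its level was 7.47 in erythroid mouse 2-3, 5.87 in 5-5, 6.80 in 2-3-2 and 6.03 in 2-3-3. Mouse 5-5 read 7.14 on its first and 4.60 on its second, weaker array. The T-cell mice stood at 8.58 (mouse 2), 8.37 (5), 7.47 (4-1), 7.34 (2-2), 7.73 (5-1), 8.09 (4-2) and 8.27 (5-3), and the undifferentiated mouse at 7.16. Erythroid mouse 2-3 overlapped the lowest T-cell mice, and the other 3 erythroid mice lay below all T-cell mice. The means of 6.55 ± 0.74 (n = 4) and 7.98 ± 0.47 (n = 7) differed by -1.43 ± 0.34 (SE), or 2.70-fold, with a 95% interval of -2.17 to -0.69 (adjusted p = 0.0235). Without the 2 weakest arrays the difference was -1.10 ± 0.35 (adjusted p = 0.0836). It was -0.61 within arrays numbered 1 to 8 (adjusted p = 0.428) and -2.18 within arrays 9 to 16 (adjusted p = 0.111). Of the erythroid mice, arrays 1 to 8 hold 2-3 and 5-5, and 0 of 10474 genes passed there. Arrays 9 to 16 hold both weakest arrays. Cox7a2l did not pass with array number as a block (adjusted p = 0.113) or with the first title number as a block (adjusted p = 0.0912).

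Cox7a2, the paralog that is a regular subunit of cytochrome c oxidase, did not pass the test. It read 6.45, 7.48, 6.85 and 7.28 in erythroid mice 2-3, 5-5, 2-3-2 and 2-3-3 and 6.22 to 7.14 in the T-cell mice. Its difference was 0.36 ± 0.27 (adjusted p = 0.406). Without the weak arrays it was 0.18 (adjusted p = 0.724). For Cox7a2, mouse 5-5 read 6.77 on its first and 8.18 on its second, weaker array. The muscle and heart isoform Cox7a1 was detected on 2 of 8 T-cell and 1 of 5 erythroid arrays, with a difference of -0.002.

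The remaining complex IV genes did not pass. Ndufa4 read 10.31, 9.94, 8.84 and 10.12 in the erythroid mice in the order above and 10.07 to 10.48 in the T-cell mice, a difference of -0.55 ± 0.27 (adjusted p = 0.195), or -0.14 without the weak arrays (adjusted p = 0.639). Cox6a1, the ubiquitous isoform of subunit 6a, read 9.89, 9.00, 4.43 and 8.00, so that mouse 2-3 was above the T-cell range of 7.90 to 9.61 and mouse 2-3-2 was far below it. Its difference of -1.16 ± 0.79 (adjusted p = 0.357) turned to 0.22 without the 2 weakest arrays. This probe was detected on 13 of 14 labelled arrays. Another Cox6a1 probe, detected on 14 of 14, differed by -0.58 with all mice. Cox4i1, the ubiquitous subunit 4, differed by -0.50 ± 0.33 (adjusted p = 0.345) and by 0.03 without the weak arrays, and Cox6b1 by 0.03 ± 0.30 on one probe and by -0.15 on its other. Cox6c, at 11.26 ± 0.12 in T-cell and 11.10 ± 0.21 in erythroid leukemias, was the steadiest of the complex.

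On one probe, the testis isoform Cox6b2 was higher in 3 spleens, of both types, than in the others. It read 6.40 and 6.41 in T-cell mice 2-2 and 5-1 and 6.75 in erythroid mouse 5-5, and 4.58 to 5.16 in the other 9 mice. Both arrays of mouse 5-1 (6.63 and 6.18) and both of mouse 5-5 (6.24 and 7.26) showed it. This probe was detected on 4 of 8 T-cell arrays and 3 of 5 erythroid arrays. The other probe of the gene was detected on 0 arrays, at 4.53 ± 0.14 in T-cell and 4.42 ± 0.08 in erythroid leukemias. The types did not differ beyond the spread (0.12 ± 0.47, adjusted p = 0.887).

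In complex V, ATP synthase, 0 of 14 genes passed, 2 had an unadjusted p under 0.05, and 13 had a lower mean in the erythroid leukemias. Among the 5 genes of the catalytic F1 head the median was -0.52, from -0.70 for Atp5e to -0.39 for Atp5a1, and among the 9 of the membrane part and stalk it was -0.30. Without the 2 weakest arrays 9 of the 14 had the higher mean. Atp5g2, which encodes subunit c of the rotating ring, read 7.89, 6.73, 4.74 and 7.80 in erythroid mice 2-3, 5-5, 2-3-2 and 2-3-3, against 7.62 to 8.70 in the T-cell mice. Mice 5-5 and 2-3-2 were below all T-cell mice and the other two were within their range, and the difference was -1.45 ± 0.50 (adjusted p = 0.0795), or -0.80 ± 0.31 without the weak arrays (adjusted p = 0.132). Atp5g3, which encodes the same mature subunit c, differed by -0.22 ± 0.24 (adjusted p = 0.571).

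Atp5e, the epsilon subunit of the F1 head, read 9.91, 8.93, 8.80 and 9.40 in the same erythroid mice and 9.63 to 10.36 in the T-cell mice, with mouse 2-3 inside that range and the others below it. The difference was -0.70 ± 0.25 (adjusted p = 0.0906), or -0.37 without the weak arrays. Atp5k, the e subunit of the membrane part, was the only gene of complex V with a higher mean, by 0.36 ± 0.22 (adjusted p = 0.296), or 0.03 without the weak arrays, and mouse 2-3-2 was its highest mouse at 11.11. Atp5j, coupling factor 6, had 3 probes past the filter. The one used differed by -0.69, or by -0.22 without the weak arrays, and another by -1.11, while a dim probe differed by 0.89, and none passed.

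**Figure D3:**
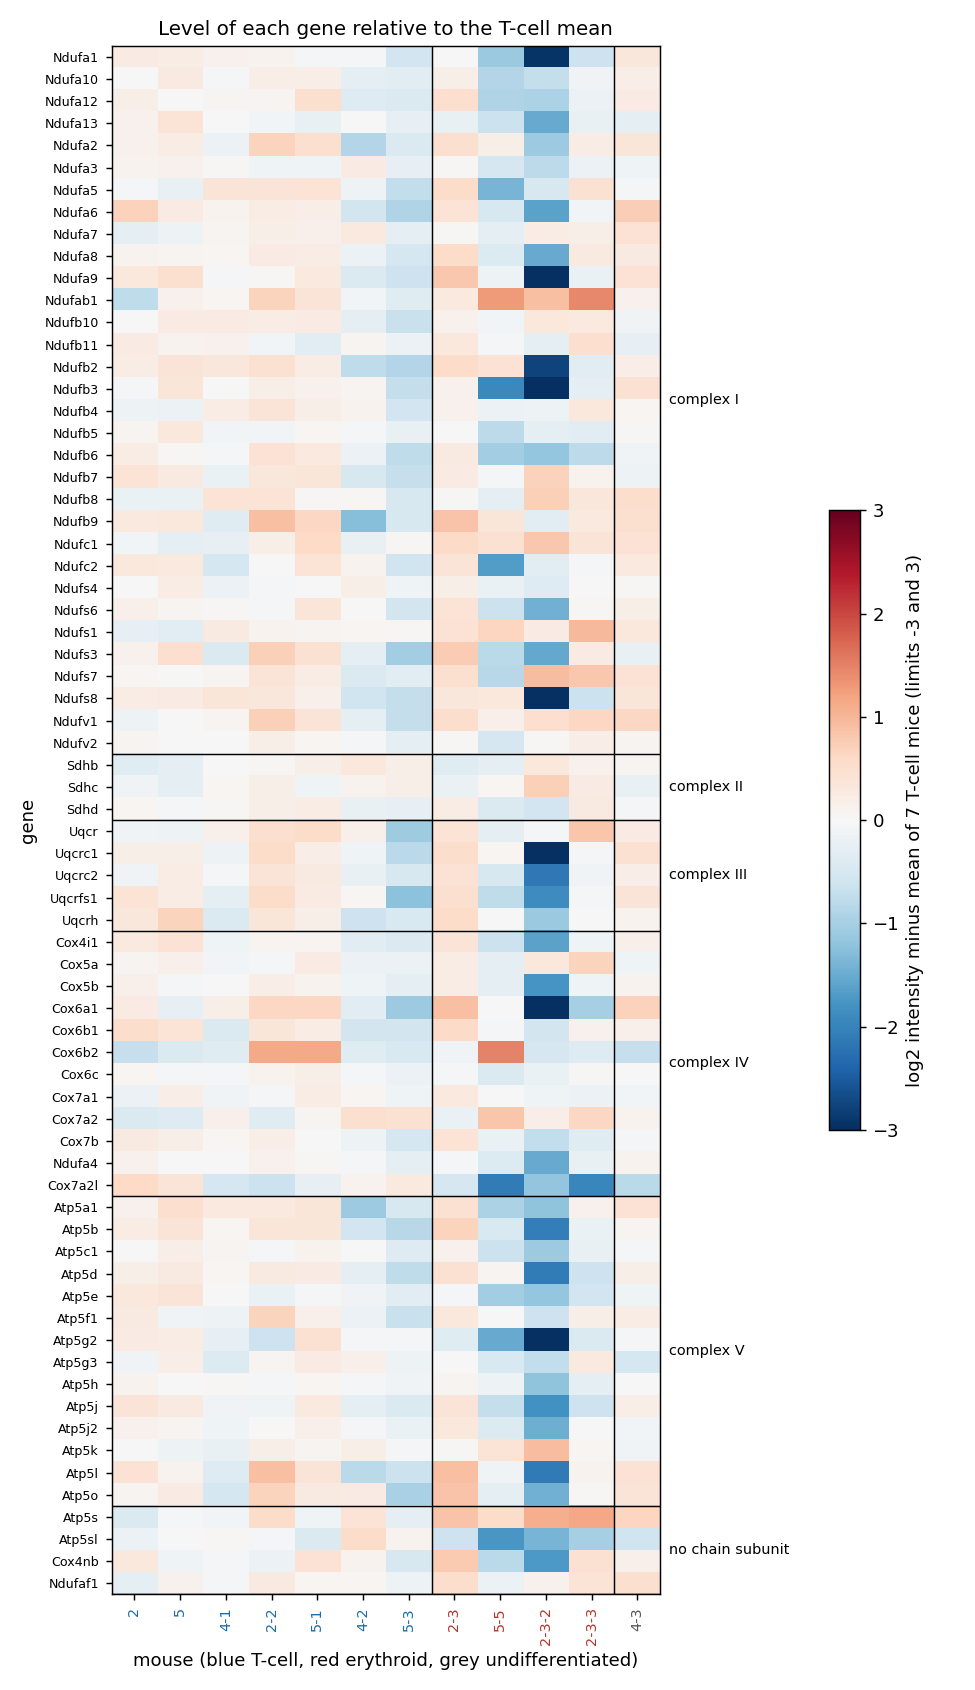
Level of 70 of the 71 tested genes (rows, by complex) in each of the 12 labelled mice (columns, by type), as log2 intensity minus the mean of the 7 T-cell mice; colours are limited at -3 and 3. The column of erythroid mouse 2-3-2 holds the darkest blue cells beside red ones such as Atp5k and Sdhc, and the row of Cox7a2l is blue in all 4 erythroid mice.

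Of the genes named for the chain that encode no subunit, Atp5sl and Atp5s passed in opposite directions. Atp5sl read 6.44, 5.31, 5.66 and 6.06 in erythroid mice 2-3, 5-5, 2-3-2 and 2-3-3. Mouse 5-5 read 6.21 on its first and 4.41 on its second, weaker array. The T-cell mice read 6.88 (mouse 2), 7.05 (5), 7.09 (4-1), 7.04 (2-2), 6.62 (5-1), 7.60 (4-2) and 7.16 (5-3), and the undifferentiated mouse 6.46. All erythroid mice lay below all T-cell mice. The probe was detected on 8 of 8 T-cell and 3 of 5 erythroid arrays. The difference was -1.20 ± 0.26 (SE), or 2.29-fold, with a 95% interval of -1.75 to -0.65 (adjusted p = 0.0140). It was -0.83 ± 0.22 without the 2 weakest arrays (adjusted p = 0.0487). Within arrays 1 to 8, where 0 of 10474 genes passed, it was -0.58 (adjusted p = 0.278). Within arrays 9 to 16, which hold both weakest arrays, it was -1.81 (adjusted p = 0.126). Atp5sl did not pass with array number as a block (adjusted p = 0.0810) or with the first title number as a block (adjusted p = 0.0737).

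Atp5s rose in the erythroid leukemias, at 5.88, 5.57, 6.11 and 6.17 in erythroid mice 2-3, 5-5, 2-3-2 and 2-3-3. The T-cell mice read 4.58 (mouse 2), 4.97 (5), 4.93 (4-1), 5.56 (2-2), 4.90 (5-1), 5.44 (4-2) and 4.76 (5-3), and the undifferentiated mouse 5.68. The lowest erythroid mouse stood barely above the highest T-cell mouse. The difference was 0.91 ± 0.24, or 1.88-fold, with an interval of 0.40 to 1.43 (adjusted p = 0.0313). It was 1.14 ± 0.24 without the 2 weakest arrays (adjusted p = 0.0246). Within arrays 1 to 8, where 0 of 10474 genes passed, it was 1.19 (adjusted p = 0.168). Within arrays 9 to 16, which hold both weakest arrays, it was 0.59 (adjusted p = 0.534). Atp5s did not pass with array number as a block (adjusted p = 0.110) or with the first title number as a block (adjusted p = 0.131). The repeat arrays of mouse 5-5 read 6.43 and 4.70, above and within the T-cell range. The probe is dim, detected on 4 of 8 T-cell and 4 of 5 erythroid arrays. Ndufaf1 differed by 0.23 ± 0.21 and Cox4nb by -0.33 ± 0.41, and neither passed.

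**Figure D4:**
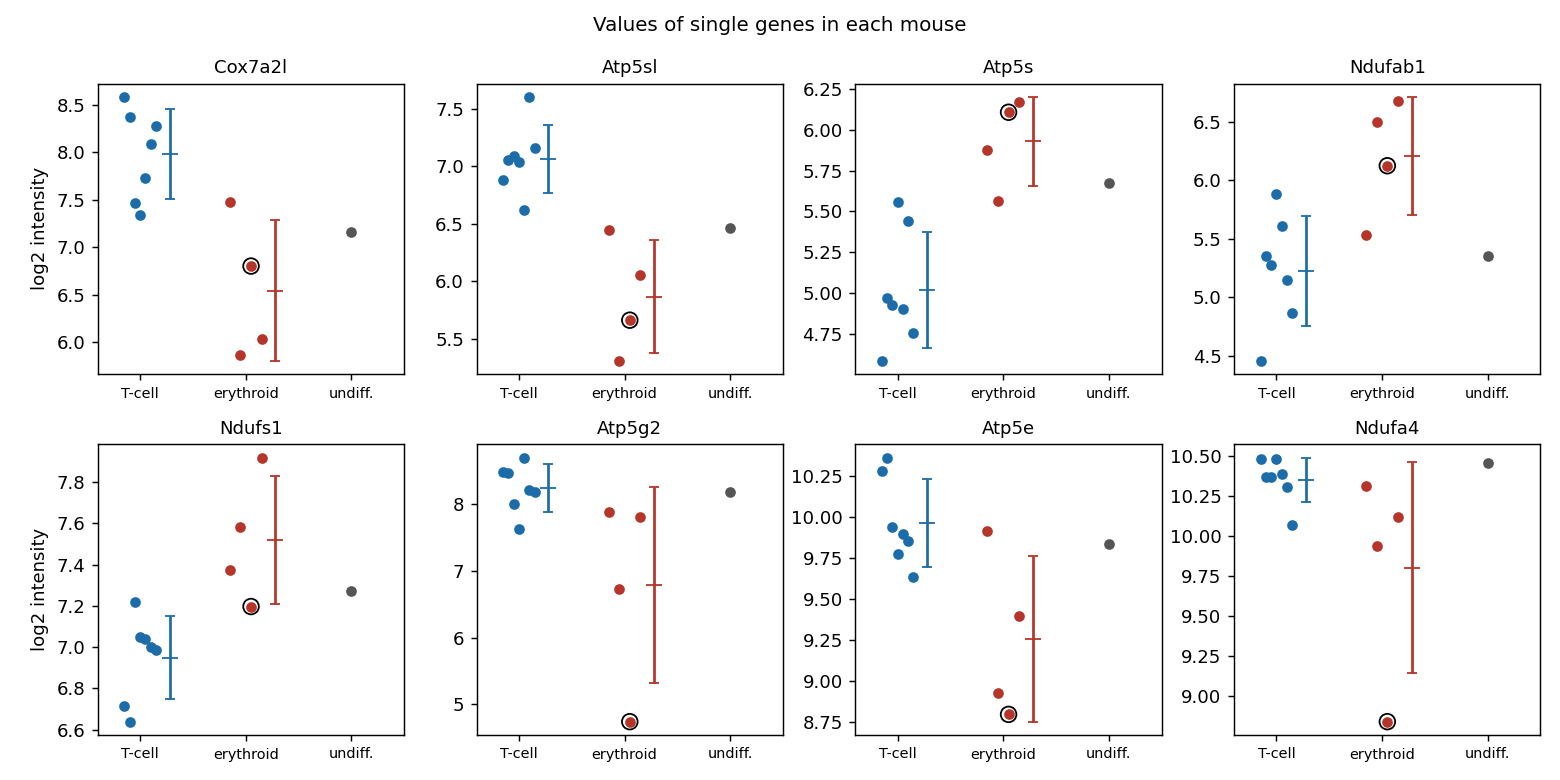
Log2 intensity of 8 genes in each mouse of the 3 leukemia types, 1 point a mouse, with the mean ± SD of the 7 T-cell and the 4 erythroid mice beside the points; erythroid mouse 2-3-2 is ringed and each panel has its own axis. All erythroid mice are below the T-cell mice for Atp5sl and above them for Atp5s, and in the panels of Atp5g2, Atp5e and Ndufa4 the ringed mouse is the lowest.

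Those 3 genes are the members past the threshold, so their promoters are shown: the 250 bases before the start site, 5′ to 3′, from RefSeq on GRCm38.p6, in lower case where no searched motif was found.
Cox7a2l (chr17:83514334-83514583, minus strand): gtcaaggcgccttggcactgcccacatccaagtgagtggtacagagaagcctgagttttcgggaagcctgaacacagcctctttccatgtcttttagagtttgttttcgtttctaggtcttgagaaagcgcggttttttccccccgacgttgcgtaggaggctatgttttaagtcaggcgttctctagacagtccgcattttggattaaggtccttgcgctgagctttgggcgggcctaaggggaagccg
Atp5sl (chr7:25619164-25619413, plus strand): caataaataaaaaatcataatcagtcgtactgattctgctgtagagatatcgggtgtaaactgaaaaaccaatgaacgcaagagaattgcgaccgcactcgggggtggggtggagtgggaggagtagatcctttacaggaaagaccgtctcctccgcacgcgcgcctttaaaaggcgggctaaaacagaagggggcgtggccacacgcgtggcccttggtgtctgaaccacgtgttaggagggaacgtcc
Atp5s (chr12:69724695-69724944, plus strand): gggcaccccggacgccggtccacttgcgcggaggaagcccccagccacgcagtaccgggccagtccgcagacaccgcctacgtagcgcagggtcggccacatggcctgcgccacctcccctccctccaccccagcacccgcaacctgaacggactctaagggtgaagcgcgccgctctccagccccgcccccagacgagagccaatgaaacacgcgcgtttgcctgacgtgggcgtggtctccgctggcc
Genes of the chain are known to be regulated through NRF1 and the ETS factor GABP, so the windows of 61 members found in the promoter table (250 bases before to 50 after the start) were searched for the NRF1 motif, a palindrome of 10 bases written in capitals below, and for a GABPA motif, CCGGAAGT, on both strands. The NRF1 motif was in 4 of 61 windows, or 6.56%, and in 1.07% of the 27025 genes of the table. The GABPA motif was in 4 of 61, or 6.56%, and in 4.31% of all genes. None of the 3 windows above holds either motif. The NRF1 motif was found for Atp5g2, Atp5k, Cox6a1 and Uqcrc1, for Uqcrc1 not within the 250 bases before the start. The other 3 are shown with the motif in capitals, so that its place before the start can be compared.
Atp5g2 (chr15:102671048-102671297, minus strand): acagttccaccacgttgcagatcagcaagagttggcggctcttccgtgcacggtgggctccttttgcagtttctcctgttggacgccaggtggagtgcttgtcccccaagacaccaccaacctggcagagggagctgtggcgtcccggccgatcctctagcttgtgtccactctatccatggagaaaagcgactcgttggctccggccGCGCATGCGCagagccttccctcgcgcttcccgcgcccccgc
Atp5k (chr5:108434400-108434649, minus strand): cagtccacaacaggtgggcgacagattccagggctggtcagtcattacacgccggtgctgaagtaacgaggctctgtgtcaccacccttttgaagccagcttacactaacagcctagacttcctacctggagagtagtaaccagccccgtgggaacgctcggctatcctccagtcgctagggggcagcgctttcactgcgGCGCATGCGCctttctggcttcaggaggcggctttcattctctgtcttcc
Cox6a1 (chr5:115348959-115349208, minus strand): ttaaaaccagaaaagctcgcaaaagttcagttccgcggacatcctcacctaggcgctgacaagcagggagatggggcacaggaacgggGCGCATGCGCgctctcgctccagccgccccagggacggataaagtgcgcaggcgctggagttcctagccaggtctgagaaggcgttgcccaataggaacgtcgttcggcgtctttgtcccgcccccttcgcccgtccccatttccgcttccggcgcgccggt
Of the carriers of the motif, Atp5k differed by 0.36, and Atp5g2, Cox6a1 and Uqcrc1 by -1.45, -1.16 and -0.61, and none passed. Without the weak arrays these differences were 0.03, -0.80, 0.22 and 0.31 in that order.

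The undifferentiated leukemia was represented by mouse 4-3 alone, which was assumed to vary like the other mice. Against the T-cell leukemias 0 of 71 members passed in limma, where 0% of all genes were higher and 0.0191% were lower, and against the erythroid leukemias 0 of 71 passed, where 0% were higher and 0.00955% were lower. The count at an unadjusted p under 0.05 was 0 in both contrasts, against 7.22% and 4.72% of all genes. The smallest p was 0.130 for Atp5s and 0.0690 for Ndufa1. The median difference was 0.12 from the T-cell and 0.37 from the erythroid mean, with 47 and 56 of 71 members higher. For 54 members the value of mouse 4-3 lay within the T-cell range, for 12 above it and for 5 below it. Complex means were 8.44 for complex I, 9.44 for II, 8.23 for III, 8.81 for IV and 9.09 for V. Each was inside both the T-cell and the erythroid range. A 95% interval reached a median of 1.10 to either side of the difference from the T-cell mean.

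The erythroid minus T-cell change was also compared between mice with first title number 5 and those with 2, a number whose meaning the labels do not give. The erythroid side of number 5 is mouse 5-5 alone, and 1 of its arrays is the weakest of all. In limma 0 of 71 members and 0 of 10474 genes differed, with a smallest adjusted p of 0.763 among members. At an unadjusted p under 0.05 there were 2 members, or 2.82%, against 5.98% of all genes.

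Genes that serve the chain were compared by lists, beside 3.86% of all genes higher and 6.43% lower. Among complex IV assembly factors 1 of 15 tested was higher and 2 were lower, with a median of -0.23. Cox11, which delivers copper to the CuB site, rose by 1.69 ± 0.31 (adjusted p = 0.00777), from 6.05 ± 0.43 in T-cell to 7.74 ± 0.61 in erythroid leukemias. The erythroid mice read 7.04 (mouse 2-3), 8.02 (5-5), 8.43 (2-3-2) and 7.48 (2-3-3), all above the T-cell range of 5.40 to 6.54. Such a separation upward held for 2.51% of all genes. Cox10, which makes the heme A precursor heme O, fell by 1.42 (SE 0.33, adjusted p = 0.0189), and Coa6, a copper factor for COX2, fell by 1.26 (SE 0.29, adjusted p = 0.0208). Among TCA cycle enzymes 1 of 17 was higher and 1 lower. Pdhx, which binds E3 in the pyruvate dehydrogenase complex, rose by 0.93 ± 0.28 (adjusted p = 0.0495), and Suclg1, the alpha subunit of succinate-CoA ligase, fell by 1.56 (SE 0.41, adjusted p = 0.0305). Among import genes 1 of 14 was higher and 0 lower: Timm10, a chaperone of the intermembrane space, rose by 1.33 ± 0.29 (adjusted p = 0.0159). The types overlapped for Timm10, where T-cell mouse 2-2 (7.71) stood above erythroid mouse 2-3 (7.61). They also overlapped for Cox10, Pdhx and Suclg1. For Coa6 all erythroid mice lay below all T-cell mice (4.71% of all genes). Without the 2 weakest arrays Cox11 (1.44, adjusted p = 0.0216) and Timm10 (1.24, adjusted p = 0.0435) passed, and Cox10 (-1.04, adjusted p = 0.0616), Coa6 (-0.80, adjusted p = 0.0524), Pdhx (0.46, adjusted p = 0.221) and Suclg1 (-0.84, adjusted p = 0.113) did not.

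The other lists had 0 genes past the limma threshold in either direction. They held 14 tested genes for cytochrome c, ubiquinone synthesis and other electron donors (median change 0.11), 8 complex I assembly factors (-0.09) and 4 complex III assembly factors (0.09). They also held 6 genes for complex V (-0.20) and 10 regulators of mitochondrial biogenesis (-0.45). The complex V list holds assembly factors, the inhibitor and the subunits Atp5mpl and Atp5md. All these medians include the 2 weakest arrays. At an unadjusted p under 0.05 these lists had 2, 0, 0, 1 and 2 genes in that order, where 28.2% of all genes did. Ppargc1a, the coactivator PGC-1α, was detected on 0 arrays, as was the testis cytochrome c gene Cyct. The T-cell and erythroid markers differed between the same groups as Cox7a2l, Atp5sl and Atp5s, by medians of -3.52 and 2.42, and their part in these results was not tested. In the lists for B cells, granulocytes, macrophages, megakaryocytes, NK cells, stroma and muscle, 0 genes passed in limma. Tested were 5, 6, 9, 7, 4, 3 and 1 genes. Of these, 1, 0, 1, 3, 0, 1 and 0 had an unadjusted p under 0.05, against 28.2% of all genes. The median changes in the same order were -0.896, 0.517, 0.665, 1.571, 0.019, -0.827 and 0.717.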

How the data were processed

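RNA of unsorted spleen was isolated on RNeasy columns and amplified with NuGEN kits into biotin-labelled cDNA, per the labels' protocols. The authors deposited mean bead intensities and a detection p-value for 25697 probes on 15 arrays, not normalized, with bead numbers and bead standard errors as other columns. Their deposited processed values are on a log2 scale. The tools named for it are limma and R 3.0.2, per the submitters' processing notes, which state no normalization method. The processed columns correlated at 0.99998 or more with the values computed here (column medians 4.81 to 4.83).

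From the intensities, neqc of limma 3.58.1 in R 4.3.3 (normexp with negative controls inferred from the detection p-values, offset 16, quantile normalization, log2) gave the levels. Probes detected (p under 0.05) on at least 3 of 14 labelled arrays were kept (14432), repeat arrays of a mouse were averaged and the brightest probe stood for a gene, which gave 10474 genes. For 12 members several probes passed the filter. Linear models (lmFit, eBayes) had 1 mean per leukemia type over 12 mice, two-sided, with Benjamini-Hochberg adjustment over all genes tested and a threshold of 0.05. Symbols were updated through RefSeq names of GRCm38.p6, and promoter windows came from RefSeq on the same build. The number of arrays limits the precision.

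Members and gene lists were chosen with earlier results of these data known. Genes named with values in every mouse were those past the threshold, the 2 with the smallest adjusted p in each complex, those whose probes disagreed and those of paralog sets. Other members named by value were chosen after their values were seen. Alternatives covered the normalization, background correction, filter, probe choice, array weights, weak and repeat arrays, array number, title number and each mouse left out. The unlabelled array entered the normalization only. Values of 1 member are not reported here.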

Additional observations from a re-analysis of the deposited data

Results flagged for a closer look

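One value stood far from the others of its group. For Ndufa4, the complex IV subunit once assigned to complex I, T-cell mouse 5-3 was at 10.07, and the other 6 T-cell mice lay between 10.31 and 10.48. The gap took 0.581 of the range of the group, past Dixon's 95% critical value. It was the only one among 54 such tests on named genes and complex means, and chance alone marks about 1 in 20. Mouse 5-3 was also the lowest T-cell mouse in the means of complexes I, III, IV and V. Its array detected 64 of the 71 members, the fewest of the T-cell arrays. It detected 11536 probes, within the T-cell range of 11278 to 12944.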

How the results depend on the processing

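Counts of members higher and lower in erythroid than T-cell leukemias were 1 and 2, against 3.86% and 6.43% of all genes. Shares of all genes higher and lower stand in brackets below. The counts were 0 and 0 with median scaling (0.411% and 3.67%). They were also 0 and 0 with the filter that asks for detection on all 14 labelled arrays (7.76% and 4.97%). That filter leaves out Cox7a2l, Atp5sl and Atp5s. Both counts were 0 within arrays 1 to 8 (0% and 0%) and within arrays 9 to 16 (0.42% and 1.29%). Array number (1 to 8 or 9 to 16) as a block gave 0 and 0 (4.47% and 6.22%). So did the first title number as a block (0.105% and 0.936%). The counts were 1 and 1 without the 2 weakest arrays (2.21% and 3.43%) and 0 and 2 with the second repeat arrays only (3.33% and 6.02%). They were 3 and 2 with array weights (8.95% and 10%), which added Ndufs1 and Ndufab1. Leaving out each mouse in turn gave 0 to 2 higher and 1 to 8 lower. The 8 lower came without erythroid mouse 2-3, where 8.54% of all genes were lower. The median change of the members was 0.138 without the 2 weakest arrays, and leaving out each mouse gave -0.488 to -0.008, the last without erythroid mouse 2-3-2. Median scaling moved the median of all genes to -0.22 and that of the members to -0.49. Atp5sl passed in 23, Cox7a2l in 19 and Atp5s in 16 of 28 alternatives, with the same sign in all 28. Not all of these could differ from the main run. The 2 compared groups alone, and the fit without the undifferentiated mouse, returned the same changes and adjusted p-values. Averaging the filtered probes left the changes of these genes as they were. The change ran from -1.81 to -0.49 for Atp5sl, -2.18 to -0.61 for Cox7a2l and 0.28 to 1.19 for Atp5s. Without single mice, Cox7a2l lost the call in 3 cases (T-cell mouse 5, erythroid mice 5-5 and 2-3-3), Atp5s in 6 (T-cell mice 2, 5, 4-1 and 5-3, erythroid mice 2-3-2 and 2-3-3) and Atp5sl in 0. The counts for the undifferentiated leukemia were 0 in every alternative run for them, and the count for the title numbers was 0 with median scaling. The cause of these differences was not tested. On the array of mouse 2-3-2, 52 of the 71 members were detected.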

Other observations

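Some subunits and assembly factors of the chain stand on the array under older symbols that the name rule misses. They were chosen after their values were seen, and most are assembly factors. Of 12 such genes tested, 2 passed, both lower, and the other 10 had adjusted p-values of 0.170 to 0.845 in limma. Of all genes, 3.86% were higher and 6.43% lower. Ndufv3 (in the table as 1500032D16Rik), an accessory subunit of complex I, read 8.08, 8.02, 7.10 and 7.52 in erythroid mice 2-3, 5-5, 2-3-2 and 2-3-3, and 8.56 to 9.53 in the T-cell mice. All erythroid mice lay below all T-cell mice (4.71% of all genes), and the undifferentiated mouse was at 7.87. The mean fell by 1.26 (SE 0.25, adjusted p = 0.0107 in limma). Without the 2 weakest arrays the difference was -1.08 ± 0.23 (adjusted p = 0.0240). Sdhaf1 (0610010E21Rik), an assembly factor for the iron-sulfur subunit of complex II, was at 7.38 and 5.73 and fell by 1.65 (SE 0.34, adjusted p = 0.0127 in limma), with -1.17 and an adjusted p of 0.0602 without the weak arrays. Of the other subunits, Uqcr10 of complex III differed by 0.09 ± 0.23, and Atp5mpl and Atp5md of complex V by -0.08 ± 0.22 and -0.75 ± 0.34. None of these passed, and Atp5mpl and Atp5md are also counted in the complex V list above. Ndufv3, picked after its values were seen, passed the threshold that 0 of the 33 complex I genes found by name passed.

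The array whose labels give no mouse and no type was left out of the comparisons. On it Cox7a2l read 7.28, Atp5sl 6.54 and Atp5s 4.55, and Ndufab1 read 5.73. Cox7a2 read 7.48, as high as the highest labelled mouse, and Cox6c read 11.53, above all 12 labelled mice.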
